A study of Mus musculus with 12 samples.

Results

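The genes described here present peptides on MHC class II molecules: H2-Aa, H2-Ab1, H2-Eb1, H2-DMa, H2-DMb1, Cd74 and Ciita. They were taken by gene name, 7 of the 36254 genes in the deposited table, and each name matched 1 gene. All 7 had enough reads for the test of differences between groups. The study asked how taurine and proline, both amino acids, alter orthotopic lung tumours in mice, an orthotopic tumour being one grown in its organ of origin.

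RNA from bulk tissue was sequenced in 12 libraries, 3 in each of 4 groups. Taurine and Proline are tumours that received the amino acid each is named for, Model is untreated tumour, and Control is normal lung from the same study. The sample names give C57 for all 4 groups, so this background is shared by every comparison. Every sample, Control included, carries the tissue label Lung Tumor, while the series' design text calls the control normal lung. The sources used here do not give the tumour line, dose, route, duration of treatment, age or sex. Nothing says that the libraries of a group came from separate animals, so each p-value reflects only the spread among these samples, which may be technical.

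MHC class II molecules are heterodimers that display peptides from the endosomal pathway to CD4+ T cells. H2-Aa and H2-Ab1 encode the alpha and beta chains of I-A, and H2-Eb1 encodes the beta chain of I-E. Cd74, the invariant chain, fills the groove of a new class II dimer and steers it to endosomes. H2-DMa and H2-DMb1 encode chains of H2-DM, which removes the last fragment of Cd74 and edits the bound peptide. Ciita is the transactivator that switches these genes on, without binding DNA itself. It is recruited by RFX, CREB and NF-Y proteins on the X and Y boxes upstream of class II genes. Dendritic cells, B cells and activated macrophages are the usual sources of class II. In lung, alveolar type 2 cells, the epithelial cells that make surfactant, also carry it.

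H2-Aa, H2-Ab1, H2-Eb1, H2-DMa and H2-DMb1 lie together on mouse chromosome 17. In the GENCODE M21 annotation of GRCm38 they occupy chr17:34282744-34287823 on the minus strand (H2-Aa), chr17:34257689-34269419 (H2-Ab1), chr17:34305867-34316674 (H2-Eb1), chr17:34119541-34139101 (H2-DMa) and chr17:34153072-34160230 (H2-DMb1), the last 4 on the plus strand. Ciita lies at chr16:10480059-10528418 on the plus strand. H2-DMa shares 360 exon bases with Brd2, and Ciita shares 329 with Dexi, in each case on the opposite strand. The sources used here do not give the strand setting of the counting, so reads in these stretches cannot be assigned to 1 gene. In CPM, a count scaled to library size, Brd2 averaged 335 ± 3.48 in Model and 308 ± 8.87 in Control (SD, n = 3 each). Dexi averaged 13.8 ± 0.165 CPM in Model, against 21.7 ± 2.61 CPM for Control. H2-DMb1 has a near-identical neighbour, H2-DMb2, and counts may be split between the pair.

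Because these genes share a transactivator, the stretches that carry its docking boxes are shown, from base 110 to base 11 before the RefSeq start of each gene (GRCm38.p6). They are H2-Aa at chr17:34287834-34287933 on the minus strand, H2-Eb1 at chr17:34305757-34305856 on the plus strand and H2-DMb1 at chr17:34153081-34153180 on the plus strand. The GENCODE annotation begins H2-DMb1 further upstream, so its stretch lies at the edge of the gene there. Capitals mark the X box (AAC, any 2 bases, then ATGATGC), the cyclic AMP element (TGACGTCA) and the Y box (TGATTGG).
H2-Aa: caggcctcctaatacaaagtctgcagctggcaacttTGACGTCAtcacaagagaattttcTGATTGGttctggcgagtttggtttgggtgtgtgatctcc
H2-Eb1: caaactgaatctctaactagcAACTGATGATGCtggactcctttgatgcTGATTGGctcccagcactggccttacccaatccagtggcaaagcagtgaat
H2-DMb1: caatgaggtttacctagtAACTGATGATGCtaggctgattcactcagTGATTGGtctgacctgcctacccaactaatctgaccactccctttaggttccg

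In H2-Eb1 and H2-DMb1 the X box is followed by the Y box after 16 and 17 bases. In H2-Aa the cyclic AMP element precedes the Y box by 16 bases. Searched on both strands of all 32851 RefSeq windows from 250 bases before to 50 after a start, the X pattern was found in 13 (0.0396%), the Y box in 2568 (7.82%) and the cyclic AMP element in 588 (1.79%). The X pattern and the Y box stood together in 5 windows (0.0152%), those of H2-Eb1, H2-DMb1, H2-DMb2, H2-Ob and the predicted gene Gm38969. The X pattern was written from class II windows of this table, so its scarcity elsewhere is a description of the pattern. Neither window of H2-DMa held any of the 3 patterns. A window was at hand for 4 of the 7 genes, and H2-Ab1, Cd74 and Ciita had none.

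The libraries held 56542745 to 69456490 counts. Control carried the surfactant genes of lung, with alveolar type 2 markers summing to 12300 to 14300 FPKM, and the tumour libraries held 4.80 to 346 FPKM of them. The epithelial keratin Krt8 was at 44.0 to 72.8 FPKM in the tumours and 62.9 to 78.8 in Control, while the adhesion gene Cdh1 was at 0.184 to 2.06 in the tumours and 49.2 to 58.6 in Control. Liver transcripts stood apart in Model 1 and Model 2, summing to 46.9 and 57.7 FPKM against 0.0489 in Model 3 and 4.84 to 14.4 in Control. Kidney transcripts did in Taurine 1, Taurine 2 and Model 3, with 35.9, 39.4 and 40.5 FPKM against 1.30 to 7.53 in the other libraries. Leaving out Model 1 and Model 2 left 1 library in Model, and leaving out Taurine 1, Taurine 2 and Model 3 left 1 in Taurine. In the second of these fits all 7 class II genes still passed in Model against Control, with Model 1 and Model 2. The part of these transcripts in the comparisons between tumour groups was not tested.

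Normal lung held more class II RNA than any tumour library. The levels in this paragraph and the next 3 are FPKM, fragments scaled to gene length and library size, given in the order of replicates 1, 2 and 3. Ciita, the transactivator, had 0.266, 0.0614 and 0.122 FPKM in Taurine, 1.10, 0.382 and 0.188 in Proline, 0.302, 0.128 and 0.125 in Model, and 1.78, 2.55 and 3.26 in Control. Every tumour library lay below every Control library, and Proline 1 was the highest of the tumours.

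Of the classical chains, H2-Aa had 10.1, 1.80 and 4.79 FPKM in Taurine, 46.8, 11.3 and 5.34 in Proline, 10.6, 7.46 and 3.32 in Model, and 83.1, 103 and 126 in Control. H2-Ab1, its partner in I-A, had 15.2, 3.04 and 7.51 FPKM in Taurine, 80.2, 17.2 and 8.85 in Proline, 16.2, 11.6 and 5.51 in Model, and 130, 163 and 192 in Control. In both genes Taurine 2 was the lowest library and Proline 1 the highest tumour, and the 3 tumour groups overlapped. H2-Eb1, the I-E beta chain, had 16.4, 3.20 and 7.92 FPKM in Taurine, 92.6, 15.5 and 8.76 in Proline, 15.7, 10.5 and 6.05 in Model, and 135, 161 and 188 in Control. H2-Ea, the I-E alpha chain, which C57BL/6 mice are known not to express, had 6 counts or fewer in every tumour library and 0 to 9 counts in Control, and was not tested.

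Cd74, the invariant chain, had 52.6, 10.5 and 27.4 FPKM in Taurine, 316, 66.4 and 30.2 in Proline, 54.7, 39.8 and 17.8 in Model, and 545, 696 and 864 in Control. It had the highest FPKM of the 7 genes in every library. The gene lies apart from the others, at chr18:60803848-60812652 on the plus strand (GENCODE M21, GRCm38). FPKM depends on the gene length used. Lengths worked out from counts, summed counts and FPKM were 1.31 to 1.32 times the GENCODE exon length in all 7 genes. The library total used for FPKM is not known, so this shared factor cannot be assigned to length or to total. The lengths were in the proportion of GENCODE exon lengths, so the order between the genes rests on one kind of length.

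The peptide editors were less spread among the tumours than the other 5 genes. H2-DMa had 3.40, 1.30 and 1.58 FPKM in Taurine, 7.68, 4.24 and 2.27 in Proline, 2.69, 2.75 and 2.17 in Model, and 12.4, 15.5 and 19.4 in Control. H2-DMb1 had 6.35, 3.77 and 3.12 FPKM in Taurine, 17.7, 7.41 and 4.12 in Proline, 6.36, 4.62 and 3.30 in Model, and 29.3, 36.2 and 41.0 in Control. In CPM, the highest tumour library differed from the lowest 5.86-fold for H2-DMa and 5.67-fold for H2-DMb1, against 17.6-fold for Ciita and 25.9-fold to 30.2-fold for the classical chains and Cd74. Among the Control libraries the same CPM ratio was 1.35 to 1.77 over all 7 genes.

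**Figure D1:**
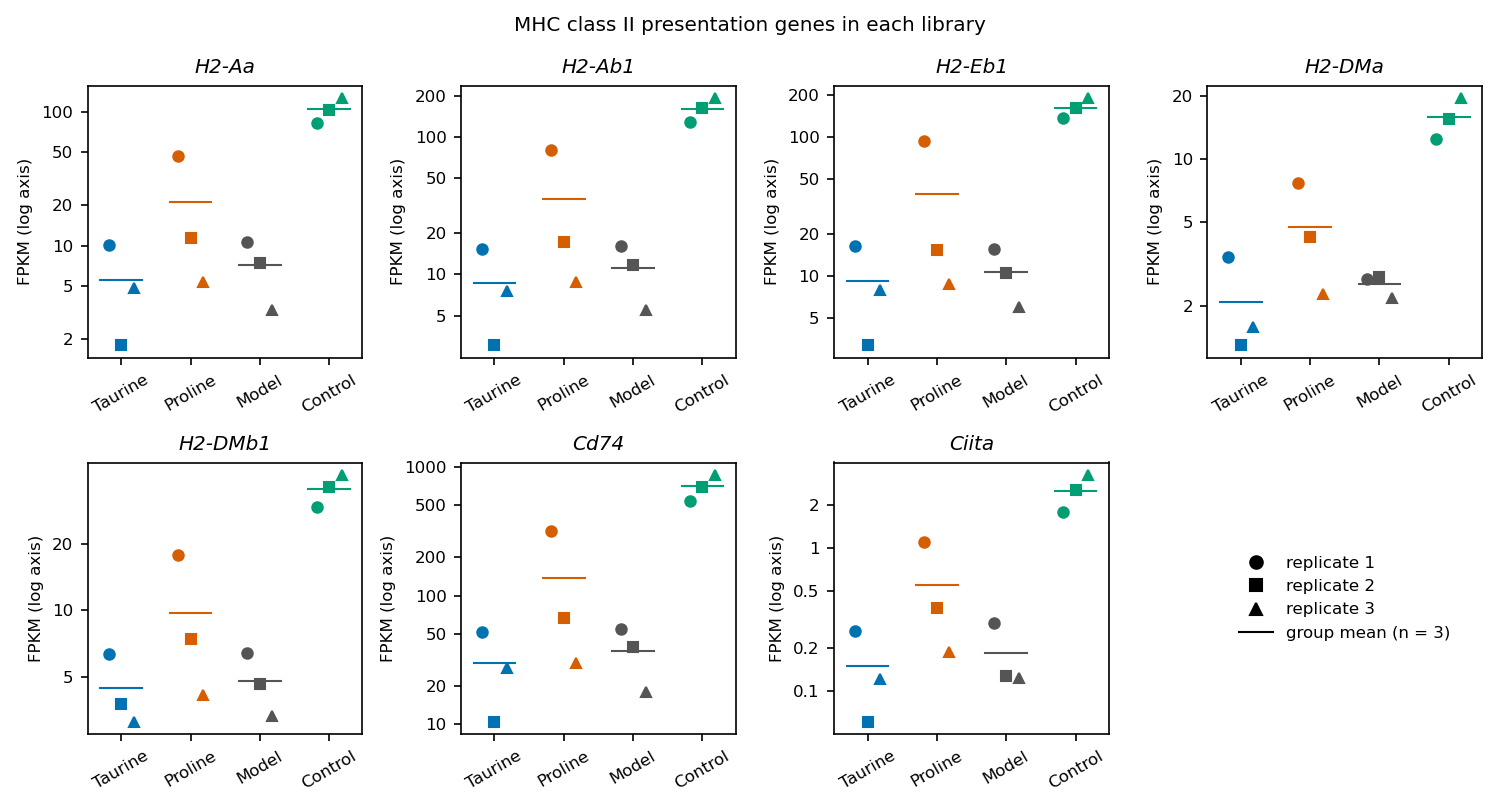
FPKM of the 7 class II genes (log axis) in each of the 12 libraries, in 1 panel per gene with Taurine, Proline, Model and Control side by side. Each point is 1 library and the line is the group mean. All 3 Control libraries lie above all 9 tumour libraries in every panel, and Proline 1 is the highest tumour library.

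The group means had one order in all 7 genes, with Control highest, then Proline, Model and Taurine. H2-Aa averaged 5.57 ± 4.21 FPKM in Taurine, 21.1 ± 22.4 in Proline, 7.12 ± 3.64 in Model and 104 ± 21.5 in Control (SD, n = 3 each). Cd74 averaged 30.2 ± 21.2 FPKM in Taurine, 137 ± 156 in Proline, 37.4 ± 18.5 in Model and 702 ± 159 in Control. The SD of Proline exceeded its mean in these genes, and the 3 tumour groups, neighbours in that order, overlapped. No tumour library reached the lowest Control library in any of the 7 genes.

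The comparison of Model with Control sets untreated tumour beside normal lung. All 7 class II genes fell in Model, between 2.75 and 4.35 on the log2 scale, and no Model library overlapped a Control library. Among all 23191 genes tested, 29.3% passed as lower in Model, and 36.6% were lower with no overlap between the groups. The median change of the 7 genes was −3.99, beside −0.03 over all genes tested. In bulk tissue, fewer cells of a type and less RNA per cell cannot be told apart.

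Cd74 fell by 4.35 on the log2 scale (SE 0.90, adjusted p = 0.00152, edgeR's quasi-likelihood test with Benjamini-Hochberg adjustment over all genes tested, as for every adjusted p unless another is named). Its level was 79.5 ± 38.2 CPM in Model, against 1630 ± 347 CPM for Control (SD, n = 3 each). H2-Aa and H2-Ab1 both fell by 3.99 (SE 0.86 and 0.85, adjusted p = 0.002 and 0.00191). H2-Eb1 fell by 4.03 (SE 0.89, adjusted p = 0.0024) and Ciita by 3.88 (SE 0.73, adjusted p = 0.000825). The editors fell by less, H2-DMa by 2.75 (SE 0.45, adjusted p = 0.000315) and H2-DMb1 by 3.02 (SE 0.50, adjusted p = 0.000309). All 7 genes passed under every alternative tried.

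**Figure D2:**
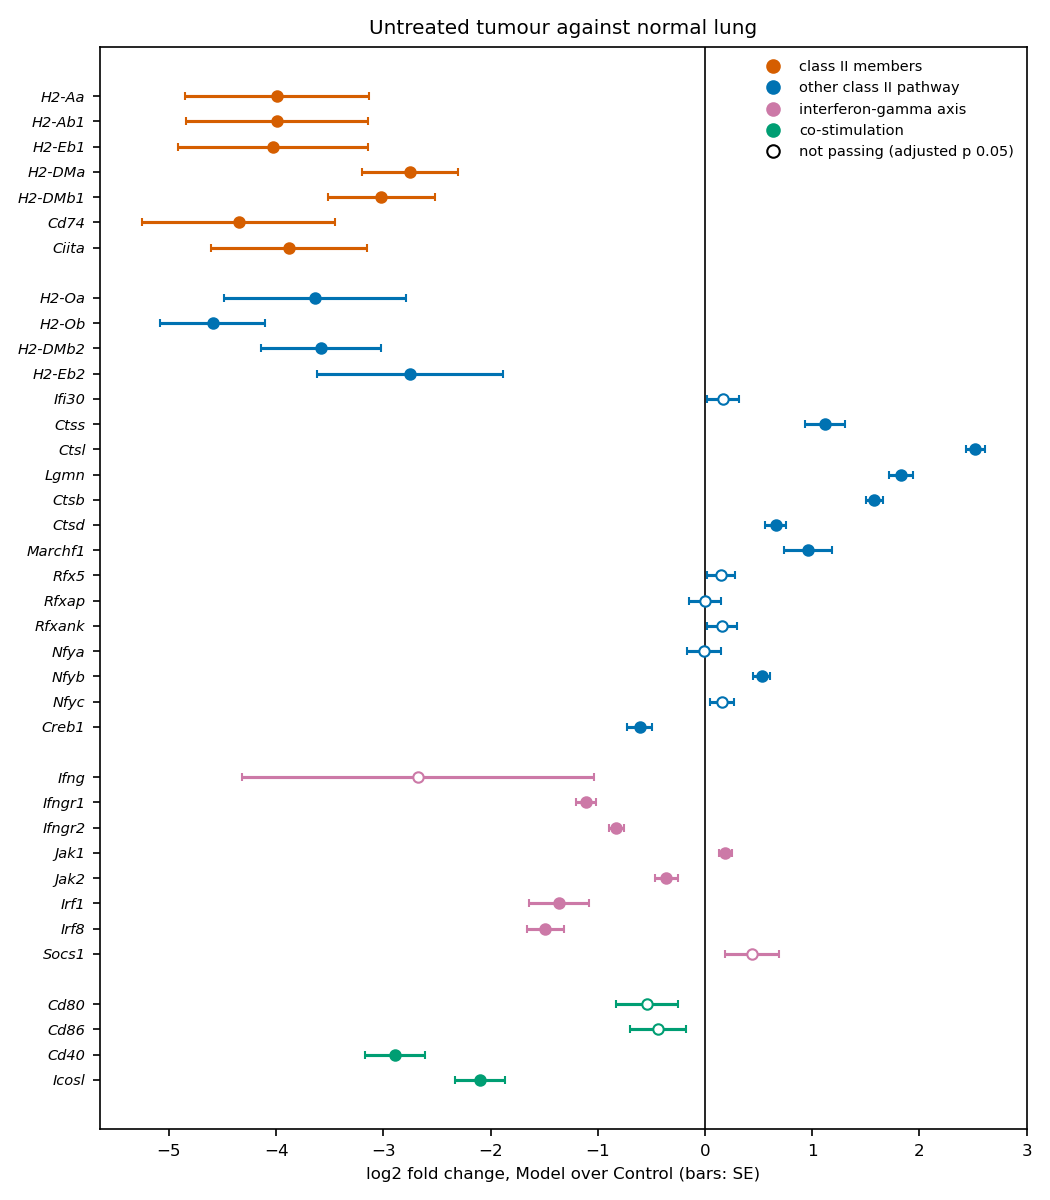
Log2 fold change of Model over Control (horizontal axis) with its standard error for the class II genes, the other class II pathway genes, the interferon-gamma axis and co-stimulatory genes. Filled points passed an adjusted p of 0.05. The 7 class II genes lie between −4.35 and −2.75, while the lysosomal proteases Ctsl, Lgmn, Ctsb, Ctss and Ctsd lie above 0.

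The other genes of the pathway divided. Of 19 listed, 18 were tested, of which 7 rose, 5 fell and 6 did not pass. Among all genes tested, 28.8% passed as higher in Model and 29.3% as lower. H2-Oa and H2-Ob, the chains of H2-DO, which restrains H2-DM, fell by 3.64 (SE 0.85, adjusted p = 0.00339) and 4.59 (SE 0.49, adjusted p = 1.03e-05) on the log2 scale. H2-DMb2, the neighbour of H2-DMb1, fell by 3.58 (SE 0.56, adjusted p = 0.000213). H2-Eb2, a related class II beta gene, fell by 2.75 (SE 0.87, adjusted p = 0.0182).

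The proteases that cut Cd74 and antigen in endosomes moved the other way. Ctss, which trims Cd74 in antigen-presenting cells, rose by 1.12 (SE 0.19, adjusted p = 0.000409). Ctsl, its counterpart in thymic epithelium, rose by 2.52 (SE 0.09, adjusted p = 2.97e-09), and Lgmn, the asparagine endopeptidase, rose by 1.83 (SE 0.11, adjusted p = 1.58e-07). Ctsb and Ctsd, general lysosomal proteases, rose by 1.58 and 0.66 (adjusted p = 3.37e-08 and 0.000202). Marchf1, the ubiquitin ligase that removes class II from the cell surface, rose by 0.96 (SE 0.22, adjusted p = 0.00269). Ifi30, the lysosomal thiol reductase, did not pass (log2 fold change 0.17).

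The proteins on which Ciita docks were close to level. Rfx5, Rfxap and Rfxank, the subunits of RFX, had log2 fold changes of 0.15, 0.00 and 0.16 and did not pass. Of NF-Y, Nfya (−0.01) and Nfyc (0.16) did not pass and Nfyb rose by 0.53 (SE 0.08, adjusted p = 0.000206). Creb1 fell by 0.61 (SE 0.12, adjusted p = 0.00084). Each of these changes was smaller than that of Ciita.

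Interferon-gamma is the classical inducer of Ciita outside professional antigen-presenting cells, with Irf1 among the factors it induces. Of 8 genes of this axis, 5 fell, 1 rose and 2 did not pass, beside 29.3% lower and 28.8% higher among all genes tested. Irf1 had 10.1, 9.30 and 10.6 FPKM in Model against 20.9, 24.2 and 26.2 in Control, and fell by 1.36 on the log2 scale (SE 0.28, adjusted p = 0.00159). Irf8, a factor of dendritic cells and macrophages, fell by 1.49 (SE 0.17, adjusted p = 1.72e-05). The receptor chains Ifngr1 and Ifngr2 fell by 1.11 and 0.83 (adjusted p = 1.38e-06 and 1.94e-06). Ifng itself, with 0 to 17 counts per Model library and 33 to 68 per Control library, did not pass (log2 fold change −2.68, SE 1.64, adjusted p = 0.187). Of 4 co-stimulatory genes, Cd40 fell by 2.89 and Icosl by 2.10, while Cd80 (−0.54) and Cd86 (−0.44) did not pass.

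Most markers of B cells and dendritic cells were lower in Model, where 29.3% of all genes tested passed as lower. All 6 B cell markers fell, and their summed level was 1.99 to 3.97 FPKM in Model and 61.8 to 75.7 FPKM in Control. Cd79a and Cd79b, chains of the B cell receptor, fell by 4.79 and 4.18 on the log2 scale. Of 9 dendritic cell markers 7 fell and none rose, with sums of 7.22 to 8.56 FPKM in Model and 37.9 to 41.9 FPKM in Control. Clec9a, a receptor of cross-presenting dendritic cells, fell by 1.69 and Ccr7, the receptor that guides them to lymph nodes, by 4.03.

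All 6 alveolar type 2 markers fell, with sums of 5.0 to 8.47 FPKM in Model against 12300 to 14300 FPKM in Control. The surfactant genes Sftpc and Sftpb fell, with log2 fold changes of −13.67 and −13.43. Sftpc was listed at 0 in Model 2. Macrophage and monocyte markers moved the other way, with 6 of 8 higher and 1 lower, beside 28.8% and 29.3% of all genes tested. Their sums were 626 to 686 FPKM in Model against 99.0 to 148 FPKM in Control. C1qa and C1qb, complement genes of tissue macrophages, rose by 2.38 and 2.90. Of 6 alveolar macrophage markers 4 fell and 2 rose, Car4 falling by 8.30 and Chil3 by 2.67. Those that rose were Marco, at 44.9 CPM in Model against 11.6 in Control, and Fabp4, at 68.5 against 15.2 CPM. Of 3 general leukocyte markers 2 fell, Coro1a by 1.53, while Laptm5 did not pass (−0.40, adjusted p = 0.0566). No marker of these lists was at 0 in all 3 Model libraries. The part of these cell types in the fall of the 7 genes was not tested.

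**Figure D3:**
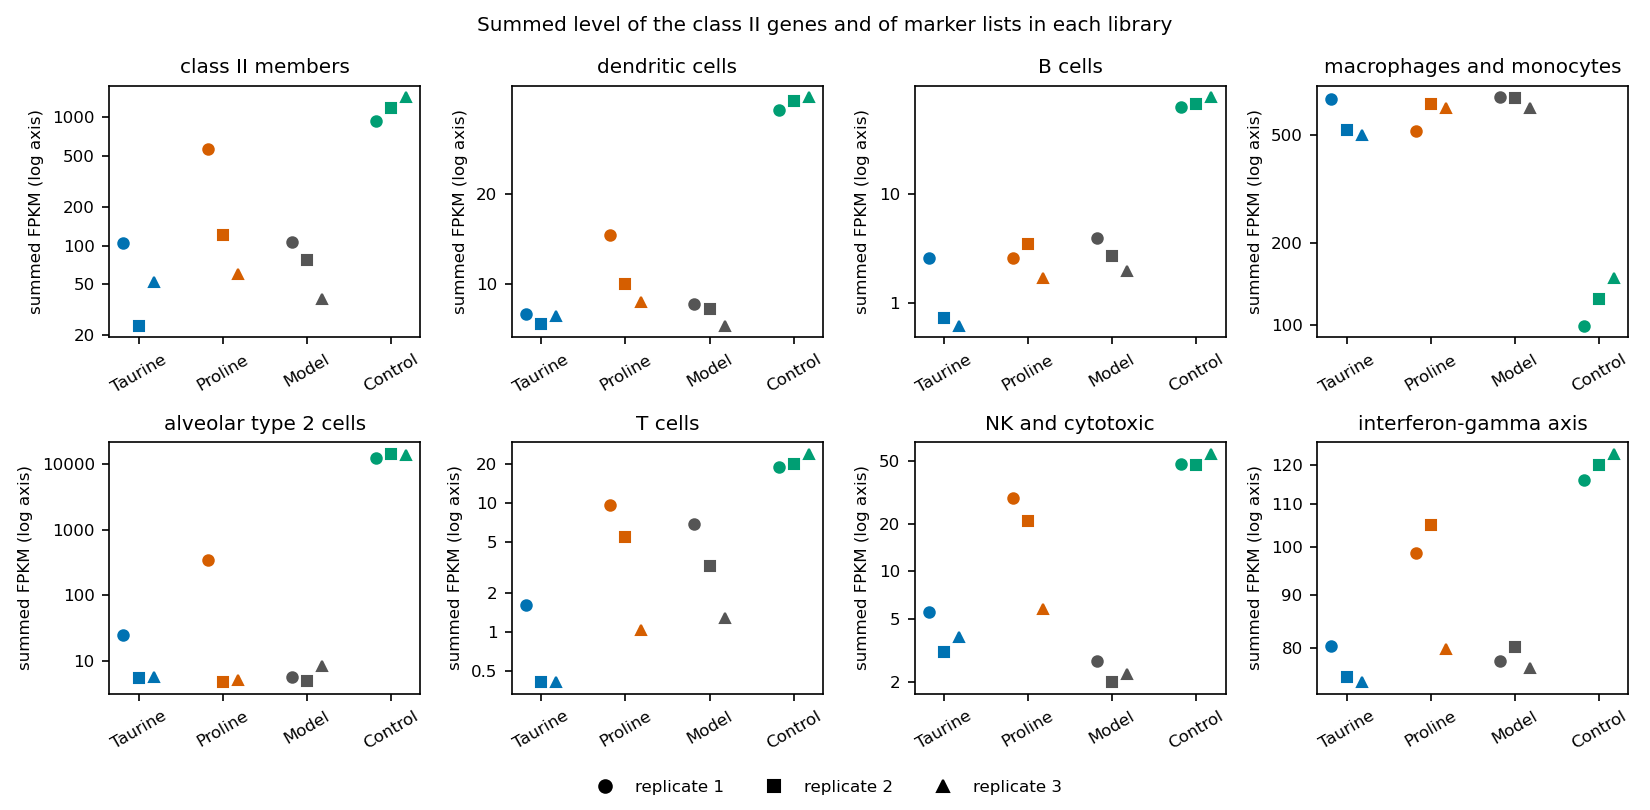
Summed FPKM (log axis) of the 7 class II genes and of 7 gene lists in each library, with Taurine, Proline, Model and Control side by side. Each point is 1 library and its shape gives the replicate. Macrophage and monocyte markers are higher in all tumour libraries than in Control, whereas class II, B cell and dendritic cell sums are lower.

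The class II genes did not fall in one proportion. The CPM of each gene was divided by that of H2-Aa in the same library, and 9 tumour libraries were compared with 3 Control libraries, a grouping and test added after the values were seen. The ratio of H2-DMa to H2-Aa was 0.149 to 0.660 in the tumours and 0.135 to 0.139 in Control, higher by 1.29 on the log2 scale (exact permutation test, two-sided, p = 0.00909, adjusted p = 0.0273 over 6 ratios). The ratio of H2-DMb1 was 0.167 to 0.924 in the tumours and 0.144 to 0.156 in Control, higher by 1.10 (exact permutation p = 0.00909, adjusted p = 0.0273). That of Cd74 was 2.29 to 2.98 in the tumours and 2.90 to 3.03 in Control, with a log2 difference of −0.26 (exact permutation p = 0.0182, adjusted p = 0.0364). The smallest p this two-sided test can give is 0.00909, the value reached by the ratios of H2-DMa and H2-DMb1.

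The ratios of the other chains were not told apart. H2-Ab1 stood at 1.01 to 1.16 times H2-Aa in the tumours and 1.03 to 1.07 times in Control (exact permutation adjusted p = 0.513). H2-Eb1 stood at 0.704 to 1.01 in the tumours and 0.763 to 0.830 in Control (exact permutation adjusted p = 0.582). Ciita stood at 0.0437 to 0.0950 in the tumours and 0.0540 to 0.0650 in Control (exact permutation adjusted p = 0.409). Proline 1 was the tumour library nearest to Control in the ratios of H2-DMa (0.149), H2-DMb1 (0.167) and Cd74 (2.98). The tumour libraries span 3 treatments. The overlap of H2-DMa with Brd2 touches 1 of the ratios that were higher, and the near-identity of H2-DMb1 and H2-DMb2 touches the other.

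Set against the Control mean, each tumour library held class II RNA at its own level. The median over the 7 genes was 9.50%, 1.90% and 4.63% of the Control mean CPM in Taurine 1, 2 and 3. It was 46.8%, 10.2% and 5.09% in Proline 1, 2 and 3, and 9.28%, 6.50% and 3.59% in Model 1, 2 and 3. Proline 1 held between 41.5% (Ciita) and 55.1% (H2-Eb1) across the genes, and Taurine 2 between 1.43% (Cd74) and 10.2% (H2-DMb1). H2-DMa or H2-DMb1 was the highest of the 7 genes in every tumour library but Proline 1.

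**Figure D4:**
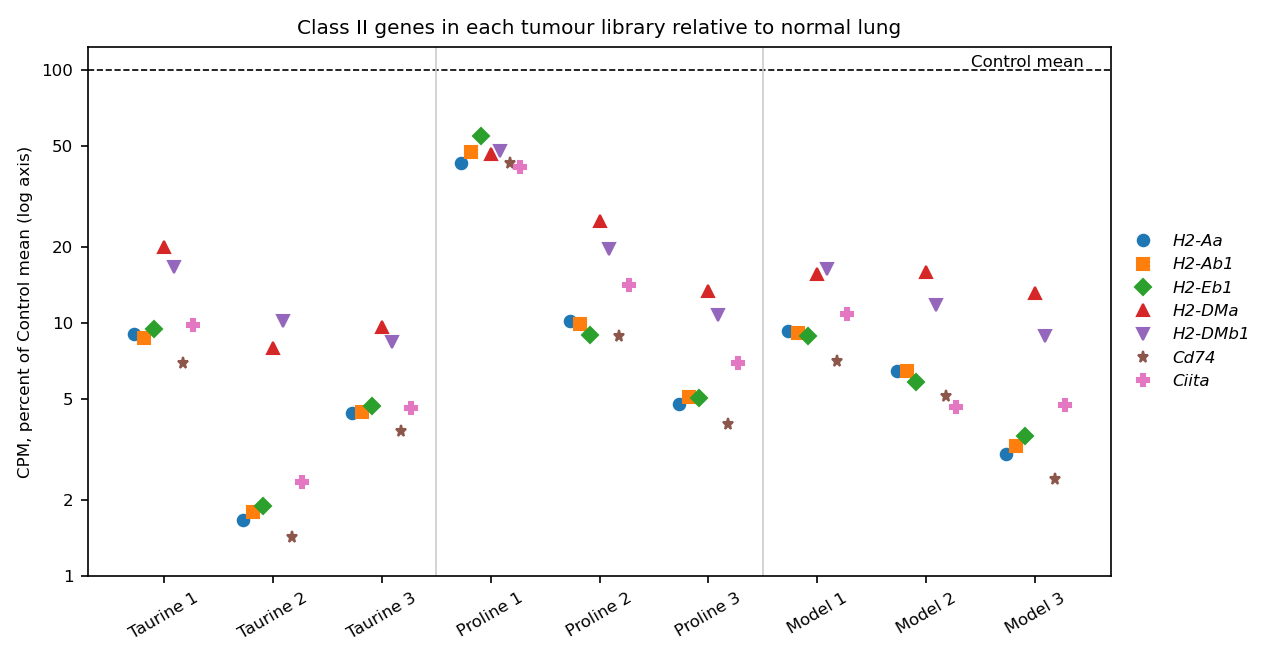
Level of each class II gene in each tumour library as a percentage of the Control mean CPM (log axis), with Taurine, Proline and Model side by side. Each point is 1 gene in 1 library. Proline 1 lies between 41.5% and 55.1%, and the other 8 tumour libraries lie lower in every gene.

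Across the 9 tumour libraries the levels of the 7 genes varied together. Pearson's r of log2 CPM over the 21 pairs of genes was 0.921 to 0.999 with a median of 0.949, and Spearman's rho was 0.867 to 1.0. Without Proline 1 the range of r was 0.778 to 0.999, with a median of 0.881. These libraries share 3 treatments and 1 tumour model, and the values are descriptive.

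The genes whose log2 CPM followed the mean of the 7 most closely over these 9 libraries were Gm2a, St8sia4, Traf1, Il18r1 and Ctsh. Their Pearson's r was 0.984, 0.980, 0.964, 0.960 and 0.959, and Spearman's rho 0.933, 0.983, 0.950, 0.983 and 0.867, in that order. Gm2a encodes the GM2 ganglioside activator, St8sia4 a polysialyltransferase, Traf1 a signalling adaptor of TNF receptors, Il18r1 a receptor chain for interleukin 18, and Ctsh a lysosomal cathepsin. Without Proline 1 and Taurine 2, the 2 libraries farthest from the median, r was 0.915, 0.892, 0.950, 0.953 and 0.754 in the same order. The genes nearest to Ciita alone were Gimap4 (r = 0.974), Gm2a (0.968), Spn (0.966), St8sia4 (0.963) and Fyb1 (0.963), with Spearman's rho of 0.933, 0.933, 0.983, 0.933 and 1.0.

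Proline against Model asks how proline treatment changed the tumour. No class II gene passed, and 0.00% of the 23191 genes tested passed in either direction. Proline 1 was above every Model library in all 7 genes, whereas Proline 3 lay within the range of the Model libraries in each of them, so the groups overlapped throughout. The log2 fold changes were 1.93 for Cd74 (SE 0.81, adjusted p = 0.338), 1.92 for H2-Eb1 (SE 0.82), 1.73 for H2-Ab1 (SE 0.78), 1.62 for H2-Aa (SE 0.78), 1.62 for Ciita (SE 0.67), 1.08 for H2-DMb1 (SE 0.47) and 0.93 for H2-DMa (SE 0.43). The adjusted p-values ran from 0.333 to 0.396, and DESeq2 called none of the 7 either. At an unadjusted p under 0.05, 5 of the 7 genes and 3106 of all genes tested were counted.

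A single library carried most of these differences. In CPM, H2-Eb1 was 6.11 times as high in Proline 1 as in Proline 2, Cd74 4.87 times, H2-Aa 4.24 times, Ciita 2.94 times and H2-DMa 1.85 times. Without Proline 1 the log2 fold changes were 0.25 for H2-Aa and H2-Ab1, 0.20 for H2-Eb1, 0.38 for H2-DMa, 0.30 for H2-DMb1, 0.39 for Cd74 and 0.64 for Ciita (adjusted p = 0.724 to 0.950). Without Proline 3 they were 1.27 for H2-DMa to 2.41 for Cd74 (adjusted p = 0.144 to 0.232).

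Other genes and markers stood out in Proline 1. Its alveolar type 2 markers summed to 346 FPKM, against 4.80 and 5.24 FPKM in Proline 2 and 3, 5.0 to 8.47 FPKM in Model and 12300 to 14300 FPKM in Control. Sftpc stood at 2.02% of the Control mean CPM in this library, Sftpb at 5.67% and Lamp3 at 3.49%, below the class II genes at 41.5% to 55.1%. Abca3, of the same list, was not higher in Proline 1. It had 4.46, 4.54 and 4.86 FPKM in Proline, 4.86 to 5.59 FPKM in Model and 37.0 to 40.6 FPKM in Control. Abca3 made up most of the type 2 sums of Proline 2 and 3. Itgax, the CD11c integrin of dendritic cells and alveolar macrophages, a gene named here because of its values, had 8.91, 1.93 and 1.69 FPKM in Proline, 1.86, 1.34 and 2.02 FPKM in Model and 5.78, 6.40 and 7.33 FPKM in Control. In Proline 1 it stood at 131% of the Control mean CPM, beside 18.7% to 30.8% in the other tumour libraries. Dendritic cell markers summed to 14.5, 10 and 8.69 FPKM in Proline and 7.22 to 8.56 FPKM in Model. Without Itgax the other 8 summed to 5.57, 8.08 and 7.0 FPKM in Proline and 5.20 to 6.89 FPKM in Model. Flt3, a growth factor receptor of dendritic cells, at 47.5% of the Control mean CPM, and Clec9a, at 23.4%, were lower in Proline 1 than in any other tumour library. Zbtb46, a factor of classical dendritic cells, stood at 6.45% and Cd209a, a lectin of monocyte-derived ones, at 0.422%. Of the remaining markers of this list, Xcr1 stood at 19.8% (38 counts), higher than in any other tumour library. Batf3 (70.2%) and Ccr7 (10.7%) were higher only in Proline 2 (70.5% and 11.8%), and Siglech stood at 16.3%. B cell markers summed to 1.72 to 3.46 FPKM in Proline and 1.99 to 3.97 FPKM in Model. Macrophage and monocyte markers summed to 517, 649 and 628 FPKM in Proline and 626 to 686 FPKM in Model. Alveolar macrophage markers summed to 31.1, 43.6 and 22.8 FPKM in Proline and 34.2 to 48.9 FPKM in Model, so neither list was highest in Proline 1. Endothelial markers were also highest in Proline 1 among the tumours, with 32.2 FPKM against 9.50 to 19.3 FPKM in the other 8, and Cdh5, their cadherin, stood at 11.9% of the Control mean CPM. Cdh1, the epithelial cadherin, stood at 3.59%. The other epithelial markers did not set Proline 1 apart. Epcam stood at 4.2%, beside 4.1% in Model 1, while Krt8 (88.0%) and Krt18 (113%) were higher in Taurine 2 (99.1% and 145%). The epithelial sum was 129 FPKM in Proline 1, 109 to 153 FPKM in Taurine and 125 to 149 FPKM in Model. The sums of the T cell, the NK and cytotoxic and the neutrophil lists were higher in Proline 1 than in any other tumour library. The part of these markers in the class II level of Proline 1 was not tested.

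Irf1 did not have the same order among the Proline libraries. It had 20, 31.0 and 12.5 FPKM in Proline against 10.1, 9.30 and 10.6 in Model, so Proline 2 was its highest tumour library. The groups did not overlap, and the log2 difference was 1.11 (SE 0.28, adjusted p = 0.195). Irf1 stood at 80.4% and 122% of the Control mean CPM in Proline 1 and Proline 2. The class II median was 46.8% and 10.2% in these 2 libraries.

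In all, 3 of the 8 interferon-gamma genes were higher in every Proline library than in any Model library (Irf1, Socs1 and Ifngr2), and so were Cd80 and Cd86, ligands of the T cell co-receptor CD28. Among all genes tested 8.77% were. Cd80 differed by 1.41 on the log2 scale (SE 0.29, adjusted p = 0.148). None of the 18 other class II pathway genes passed, and their log2 fold changes ran from −0.73 to 0.65 with a median of 0.01.

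Taurine against Model asks the same of taurine. No class II gene passed and none was counted at an unadjusted p under 0.05, and 0.00% of all genes tested passed. The log2 fold changes were −0.34 for H2-Ab1 (SE 0.76), −0.31 for H2-Aa (SE 0.77), −0.27 for Cd74 (SE 0.78), −0.27 for Ciita (SE 0.67), −0.24 for H2-DMa (SE 0.43), −0.19 for H2-Eb1 (SE 0.79) and −0.07 for H2-DMb1 (SE 0.46). The adjusted p-values were 0.972 to 1, and DESeq2 called none of the 7. Each difference was smaller than its own SE. Without Model 1, or without Taurine 2, the log2 fold change of 6 of the 7 genes turned positive, H2-DMa being the exception. Over all genes tested, 1574 were counted at an unadjusted p under 0.05.

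Of the 18 other pathway genes tested none passed. H2-Eb2, H2-Ob and Ctsd were lower in every Taurine library than in any Model library, as 6.16% of all genes tested were. Marchf1 was higher in every Taurine library, but the share of all genes in that direction is not given here, so nothing is read from it. The log2 fold changes were −4.63 for H2-Eb2 (SE 1.06, adjusted p = 0.644), −1.82 for H2-Ob, a chain of H2-DO and a gene of B cells (SE 0.46, adjusted p = 0.705), −0.26 for Ctsd (SE 0.10, adjusted p = 0.705) and 0.21 for Marchf1 (SE 0.21, adjusted p = 0.907). B cell markers summed to 2.62, 0.742 and 0.624 FPKM in Taurine and 3.97, 2.69 and 1.99 FPKM in Model. Siglecf, an alveolar macrophage and eosinophil lectin, had 0 counts in all 3 Taurine libraries and 4 to 15 in Model.

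Taurine against Proline compares both treated groups directly. Neither was the control of the other, and the Model libraries do not enter the difference. All 7 class II genes had lower means in Taurine, with log2 fold changes of −2.20 for Cd74 (SE 0.82), −2.10 for H2-Eb1 (SE 0.82), −2.06 for H2-Ab1 (SE 0.79), −1.94 for H2-Aa (SE 0.79), −1.89 for Ciita (SE 0.68), −1.18 for H2-DMa (SE 0.43) and −1.15 for H2-DMb1 (SE 0.47). None passed (adjusted p = 0.246 to 0.295, and none by DESeq2). All 7 were counted at an unadjusted p under 0.05, as were 3334 of all genes tested. As lower in Taurine, 0.0129% of all genes tested passed. The groups overlapped in every one of the 7 genes, Taurine 1 lying above Proline 3. Without Proline 1 the log2 fold changes were −0.91 for Ciita to −0.37 for H2-DMb1.

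**Figure D5:**
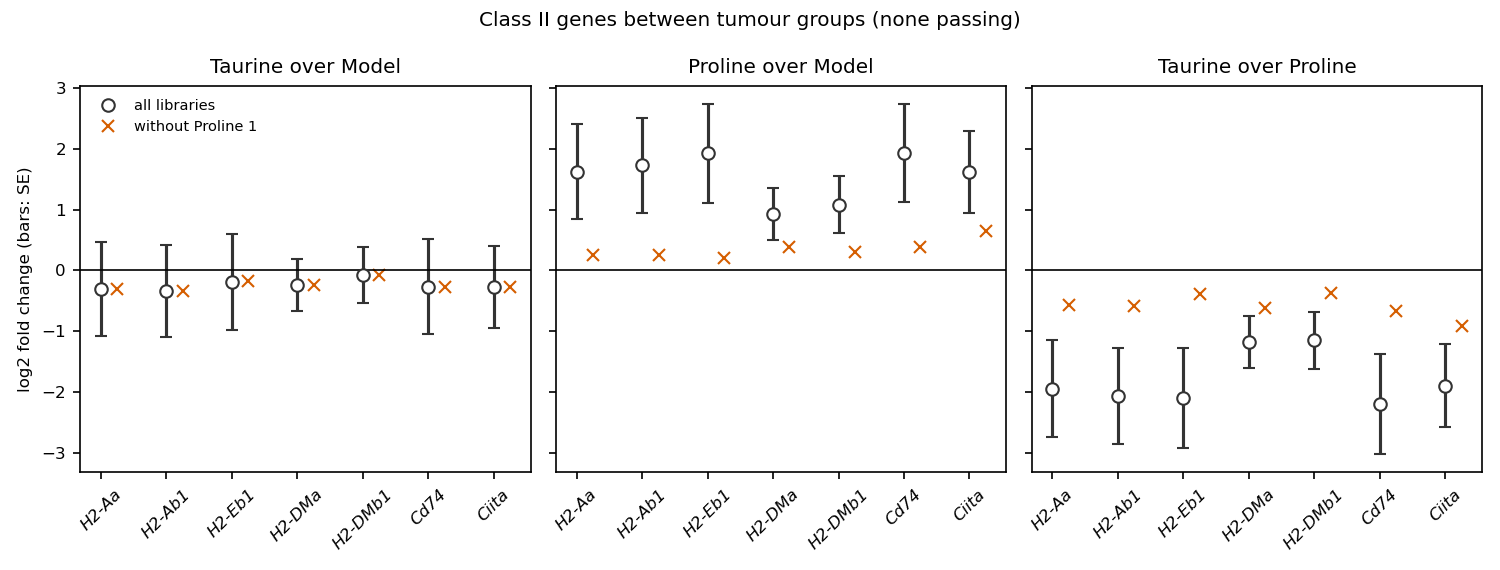
Log2 fold change with its standard error for each class II gene in Taurine over Model, Proline over Model and Taurine over Proline, with bars for the fit of all libraries and crosses for the fit without Proline 1. No point passed an adjusted p of 0.05. Leaving out Proline 1 moves the Proline over Model values from 0.93 to 1.93 down to 0.20 to 0.64.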

How the data were processed

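The authors deposited 1 table of 36254 mouse genes, with raw counts and FPKM values for each of 12 libraries. Per the file headers the counts are not normalised. Per the file headers FPKM is scaled by the authors to gene length and library total. RNA was extracted with a Qiagen RNeasy kit and libraries were made with a SMARTer mRNA kit, per the labels' protocols. The submitters' processing notes name mm10 as the build, but the table's own gene positions did not match GRCm38, so positions come from GENCODE M21 and RefSeq. The sources used here name neither aligner, counting program nor strand.

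Each library held 56542745 to 69456490 counts, and 23191 genes passed edgeR's filter on low counts. Groups were compared on the counts with edgeR's quasi-likelihood test (version 4.0.16, in R 4.3.3, with limma 3.58.1), with TMM scaling and 1 fit over all 12 libraries. The tests were two-sided, with Benjamini-Hochberg adjustment over all genes tested and a threshold of 0.05. Libraries of a group had a common biological coefficient of variation of 0.437. Standard errors (SE) were obtained by dividing each log2 fold change by the root of its F statistic. CPM values use the TMM library sizes. FPKM served for levels and, as log2(FPKM + 1) or log2(FPKM + 0.1), for limma as an alternative. The other alternatives were DESeq2 1.42.0, median-ratio and upper-quartile scaling, no filter, fits on 2 groups only, and leaving out libraries. The fit was tested on simulated counts. No 2 libraries were duplicates.

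The 7 genes, the pathway and marker lists and the tests were chosen with earlier results of these data known. All 7 genes and every gene of the 3 pathway lists were counted, and genes were named by role. Of each marker list the 2 genes with the highest mean FPKM in the group holding the list at its highest were named, except for the liver, kidney and thymocyte lists, of which only sums are given. Lamp3, Abca3, Itgax, Flt3, Xcr1, Zbtb46, Cd209a, Batf3, Siglech, Marco, Fabp4, Siglecf, Epcam and Krt18 were named after their values were seen. Genes of like pattern were the 5 with the highest Pearson's r over the 9 tumour libraries, predicted genes left out. One gene of the interferon-gamma list is not reported here and was left out of its counts and sums.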

Additional observations from a re-analysis of the deposited data

Results flagged for a closer look

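Ifngr2, a chain of the interferon-gamma receptor, lay on opposite sides of the Model mean of 42.9 CPM in the treated groups, below it in all 3 Taurine libraries and above it in all 3 Proline libraries. Its level was 39.5 ± 1.21 CPM in Taurine, 49.2 ± 0.799 CPM in Proline and 42.9 ± 2.38 CPM in Model (SD, n = 3 each). The direct comparison of Taurine with Proline gave a log2 fold change of −0.32 (SE 0.07), which did not pass (edgeR's quasi-likelihood test, adjusted p = 0.118).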

How the results depend on the processing

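No paired analysis was possible because the replicate numbers follow the order of the samples and pair nothing. In Model against Control, 7 class II genes passed under every alternative, and in the other 3 comparisons 0 did. The 147 values of the 7 genes kept their direction and their side of the threshold in each of Model against Control, Proline against Model and Taurine against Proline. In Taurine against Model 128 did and 19 changed sign. Those log2 fold changes ranged, with 1 library left out at a time, from −1.05 to 0.10 for H2-Aa, −1.01 to 0.07 for H2-Ab1, −0.89 to 0.22 for H2-Eb1, −0.41 to 0.18 for H2-DMb1, −0.92 to 0.13 for Cd74 and −0.95 to 0.26 for Ciita. With Model 1 and Model 2 left out, they were 0.75, 0.63, 0.60, 0.42, 0.76 and 0.26 in the same order. The number of all genes passing, 13479 in Model against Control, was 10429 to 14859 under the alternatives. In Taurine against Model 0 passed, with 99 by DESeq2, 2 and 1 by limma with a pseudocount of 1 and 0.1, and 0 to 7 with 1 library left out (7 without Model 3). In Proline against Model 0 passed, with 805 by DESeq2, 3 and 4 by limma, and 0 to 232 with 1 library left out (232 without Proline 3). In Taurine against Proline 10 passed, with 1104 by DESeq2, 0 under median-ratio scaling, no filter or 2 groups only, 0 and 1 by limma, and 0 to 312 with 1 library left out (312 without Proline 3). Leaving out Model 1 and Model 2 gave 1, 1 and 0 in these 3 comparisons, and leaving out Model 3, Taurine 1 and Taurine 2 gave 23, 32 and 83. Both of these settings were chosen after seeing the data, and the cause of the changes was not tested. At 3 libraries a group, the SE of up to 0.90 on the log2 scale limits what can be told apart between tumour groups.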

Other observations

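Cytotoxic and T cell genes, which mark cells that read or act on presented antigen, were also set beside the class II genes. All 6 markers of NK and cytotoxic cells fell in Model against Control, with sums of 1.99 to 2.70 FPKM in Model and 47.6 to 55.8 FPKM in Control. Gzma, a granzyme, and Nkg7, a granule protein, fell, with log2 fold changes of −5.95 and −3.81. Of 6 T cell markers 2 fell, a share near the 29.3% of all genes tested that passed as lower. Cd2, a T cell adhesion receptor, was one of them, falling by 3.75, and Cd3d, a chain of the T cell receptor complex, did not pass (−2.44, adjusted p = 0.088, edgeR's quasi-likelihood test). Gzma had 1.29, 0.467 and 1.19 FPKM in Taurine, 9.01, 5.72 and 1.97 FPKM in Proline, 0.892, 0.273 and 0.320 FPKM in Model, and 28.3, 26.1 and 30.8 FPKM in Control. In Proline against Model 5 of the 6 cytotoxic markers were higher in every Proline library than in any Model library, beside 8.77% of all genes tested, and none passed (Gzma: log2 fold change 3.52, SE 0.63, adjusted p = 0.113, edgeR's quasi-likelihood test). T cell markers summed to 9.75, 5.51 and 1.04 FPKM in Proline and 6.94, 3.28 and 1.29 FPKM in Model.

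All 4 endothelial markers fell in Model against Control, where 29.3% of all genes tested passed as lower. Their sums were 14.9 to 19.2 FPKM in Model and 348 to 366 FPKM in Control. Cdh5 and Pecam1, junction proteins of endothelium, fell by 4.31 and 4.03 on the log2 scale. Of 4 epithelial markers 2 fell, Cdh1 with a log2 fold change of −7.47, and Krt8 did not pass (−0.22). Neutrophil markers summed to 177, 157 and 39.4 FPKM in Proline, 89.9, 31.0 and 56.2 FPKM in Model and 65.9 to 99.8 FPKM in Control, and 1 of 4 fell in Model against Control. S100a8 and S100a9, calcium-binding proteins of neutrophils, did not pass (both −0.61, adjusted p = 0.332, edgeR's quasi-likelihood test). Thymocyte markers summed to 1.11 FPKM in Model 1 and 0.43 FPKM or less in every other library, and all 4 had 0 counts in Taurine. No liver, kidney or thymocyte marker passed in Model against Control. No gene of any marker list passed in Taurine against Model, Proline against Model or Taurine against Proline.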
